A study of Mus musculus with 12 samples.

Results

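The mir-15 and mir-16 family was followed through mouse sperm and TM4 cells, a mouse Sertoli cell line from the supporting cells of the testis. Members were taken by name as the hairpins mmu-mir-15a, mmu-mir-15b, mmu-mir-16-1, mmu-mir-16-2, mmu-mir-195a and mmu-mir-497a, and all 6 were found among the 1050 miRBase hairpins with at least 1 read. The level of a hairpin is given as CPM, its count scaled to 1000000 miRNA reads of the same library. Sperm came from C57BL6/J mice fed a control diet (CD, 16% of energy from fat) or a high-fat diet (HFD, 69% by the sample labels, a lower share by the methods) for 7 weeks from 4 weeks of age, with the sperm of 3 mice pooled in each library and 3 libraries per diet. TM4 cells were left untreated (Ctrl), treated for 12 h with 10 µM Compound C (CC), an inhibitor of the energy sensor AMPK, or made to overexpress angiogenin, a ribonuclease that cuts tRNA, from a plasmid (Ang OE), with 2 libraries per group. All TM4 libraries came from the same cell line, and CC and Ang OE were compared with the same Ctrl libraries. No group given an empty plasmid was among the samples, so the plasmid and angiogenin cannot be told apart in the Ang OE comparisons. The mRNA of Ang was not measured in these small RNA libraries, so the overexpression was not checked here.

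A miRNA is cut from a hairpin in a longer transcript and guides Argonaute proteins to mRNAs that pair with its seed, the bases near its 5′ end. The family is known for lowering cyclins, cyclin-dependent kinases and the survival factor BCL2, and so for restraining the cell cycle. Its genes lie in pairs, and the hairpins of a pair are thought to be cut from a shared primary transcript.

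The mature 5p miRNAs of the members are shown because the seed defines the family and because the bases after it decide which reads can be told apart. The sequences are from RefSeq for GRCm38.p6, run 5′ to 3′, and carry bases 2 to 8 in capitals.
miR-15a-5p: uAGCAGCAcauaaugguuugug
miR-15b-5p: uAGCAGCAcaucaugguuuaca
miR-16-5p: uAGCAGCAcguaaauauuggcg
miR-195a-5p: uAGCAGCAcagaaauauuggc
miR-497a-5p: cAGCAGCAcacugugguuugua
All 5 carried the same seed, which occurred in 10 of the 1679 mature mouse miRNA names of the table (0.596%). Counted from 1 at the 5′ end of the first named, miR-16-5p and miR-195a-5p were identical at 19 of 21 bases and differed by G10A and U11G. miR-15a-5p and miR-15b-5p were identical at 18 of 22 bases (A12C, G20A, U21C and G22A). miR-16-5p and miR-497a-5p were the least alike, with 11 of 22 bases identical.

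Both mir-16 hairpins are shown because they release the same 5p miRNA, which is in capitals, while the rest of the hairpin differs.
mir-16-1 hairpin: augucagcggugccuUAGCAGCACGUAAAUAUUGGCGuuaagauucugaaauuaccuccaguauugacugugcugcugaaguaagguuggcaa
mir-16-2 hairpin: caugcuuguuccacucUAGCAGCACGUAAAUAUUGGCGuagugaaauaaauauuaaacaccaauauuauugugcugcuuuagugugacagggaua
A read of miR-16-5p fits both hairpins and was divided between them in the deposited counts. The level of 1 mir-16 hairpin therefore cannot be read as the output of 1 gene. A difference between the hairpins reports reads that fitted one and not the other, such as those of the 3p arms, whose sequences differ:
miR-16-1-3p: cCAGUAUUgacugugcugcuga
miR-16-2-3p: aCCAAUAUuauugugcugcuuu
The arms of a hairpin were not counted apart in the files.

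The members formed 3 pairs in GRCm38.p6. mir-15a (chr14:61632027-61632110) and mir-16-1 (chr14:61631880-61631972) lay on the minus strand, 54 bases apart, and overlapped exons of the long non-coding RNA gene Dleu2 in the GENCODE annotation. mir-15b (chr3:69009772-69009835) and mir-16-2 (chr3:69009902-69009996) lay on the plus strand, 66 bases apart, in an intron of Smc4, which encodes a condensin subunit. mir-497a (chr11:70234717-70234800) and mir-195a (chr11:70235042-70235135) lay on the plus strand, 241 bases apart. mir-497a overlapped the opposite-strand hairpin mir-497b, and no other gene of the annotation overlapped the pair.

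The libraries held 11412945 to 14822686 miRNA reads in sperm and 27651384 to 35704399 in TM4 cells, and mir-497a, the least abundant member in sperm, still had 791 reads in its lowest library. Chi-square statistics between replicate libraries were 226 to 1468 times their degrees of freedom, far above what sampling of reads gives. Markers of other cell types were read in the sperm libraries. All 4 red blood cell markers were read there, at a sum of 25239 to 50595 CPM against 1762 to 2857 in TM4 cells, where the defining marker mir-451a was at 0.155 to 0.952 CPM against 1155 to 2420 in sperm. The 4 white blood cell markers found summed to 592 to 1435 in sperm and 1210 to 1489 in TM4 cells, which overlapped. In Ctrl cells mir-155 alone made up 1263 and 1267 of that sum, and mir-223 was at 0.178 and 0.168. All 5 epithelial markers were read as well, at 8946 to 14327 against 1.28 to 2.38. The 6 testis germ cell markers summed to 2934 to 8359 in sperm and to 934 to 2045 in TM4 cells, where mir-880 was at 0 in every library. No miRNA marker list of Sertoli cells was fixed, so the identity of the TM4 cells was not checked.

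Levels were far apart within the family. In CPM, mir-16-1 and mir-16-2 were the most abundant members in all 5 groups, ranked 39 to 42 in sperm and 19 to 29 in TM4 cells among the hairpins with reads. mir-15b ranked 104 to 105 in sperm and 48 to 76 in TM4 cells, and mir-15a, mir-195a and mir-497a ranked between 103 and 148 everywhere. The 6 hairpins together held 4088 ± 884 CPM (SD, n = 3) in CD sperm, 4570 ± 762 in HFD sperm (n = 3), 16712 ± 2284 in Ctrl cells (n = 2), 17246 ± 432 in CC cells (n = 2) and 11579 ± 1331 in Ang OE cells (n = 2). The order of the summed level was thus CC, Ctrl, Ang OE, HFD and CD. CC and Ctrl overlapped, as did HFD and CD, whereas the Ang OE libraries lay below both other TM4 groups and above all sperm libraries. The order differed among the members. For mir-15a, Ang OE lay above Ctrl and CC, which overlapped, and these above HFD and CD, which overlapped. For mir-15b, CC lay above Ctrl, Ctrl above Ang OE, and Ang OE above the overlapping diets. For mir-497a, the overlapping Ctrl and CC lay above Ang OE, and Ang OE above the overlapping diets. For mir-195a, the means of Ctrl (292), CC (282), CD (248) and HFD (246) followed each other with overlap between neighbours, and Ang OE (215) was lowest and lay below Ctrl, CC and HFD but overlapped with CD. CPM are shares of the miRNA reads, so fewer cells of a type and less RNA per cell cannot be told apart in them.

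**Figure D1:**
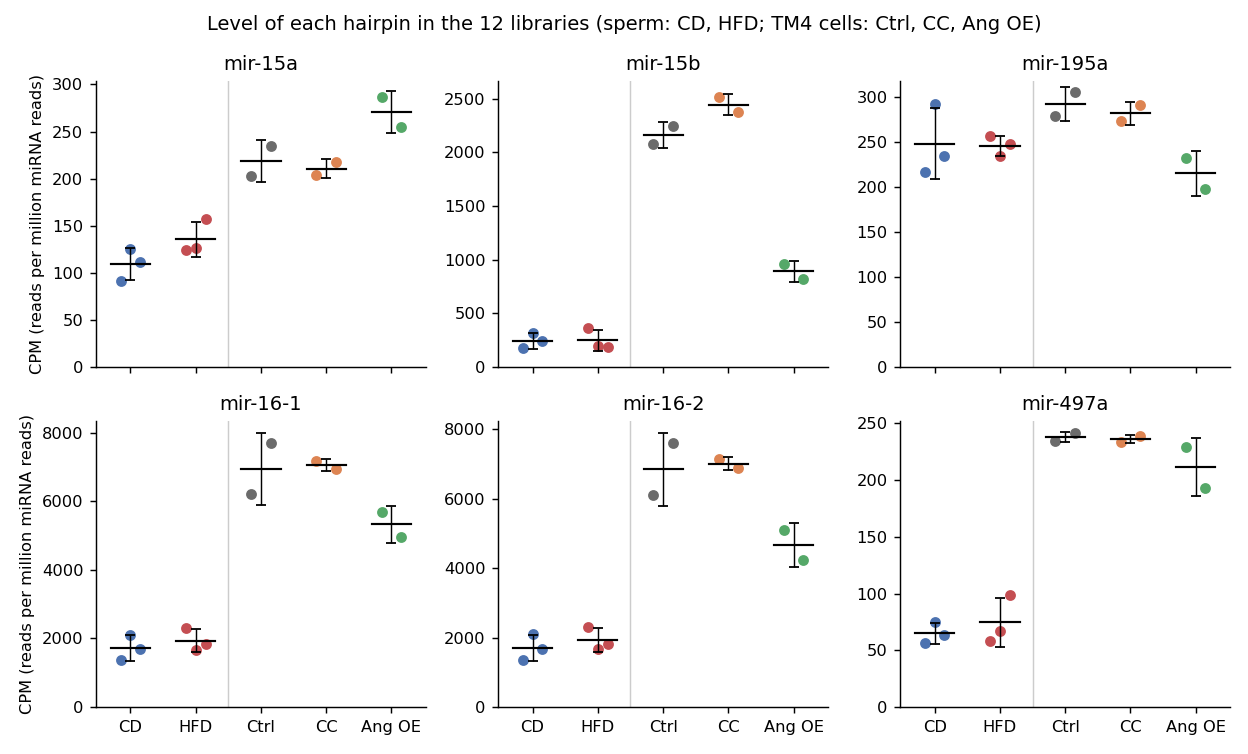
CPM (vertical axis, linear, from 0) of the 6 hairpins in the 12 libraries, with 1 point per library, a line at the group mean and bars of 1 SD. The members of a pair stand one above the other, mir-15b falls from 2163 in Ctrl to 889 in Ang OE on average, and mir-15a stands highest in Ang OE, at 271.

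The make-up of the family differed between sperm and TM4 cells. Each mir-16 hairpin supplied 39.7% to 46.6% of the family reads in every library. The share of mir-15b was 5.84% ± 0.54 (SD, n = 3) in CD sperm, 5.26% ± 1.26 in HFD sperm (n = 3), 13.0% ± 1.06 in Ctrl (n = 2), 14.2% ± 0.22 in CC (n = 2) and 7.68% ± 0.03 in Ang OE cells (n = 2). The share of mir-195a went the other way, with 4.73% to 6.69% in the sperm libraries and 1.56% to 1.86% in the TM4 libraries. mir-497a supplied 1.08% to 2.27% in sperm and 1.32% to 1.83% in TM4 cells, which overlapped. mir-15a supplied 2.28% to 3.62% of the family reads in sperm, 1.16% to 1.35% in Ctrl and CC cells, and 2.29% and 2.40% in the Ang OE libraries. Ang OE cells lay within the sperm range for this member through HFD replicate 1 alone (2.28%), and below the lowest CD library (2.51%).

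**Figure D2:**
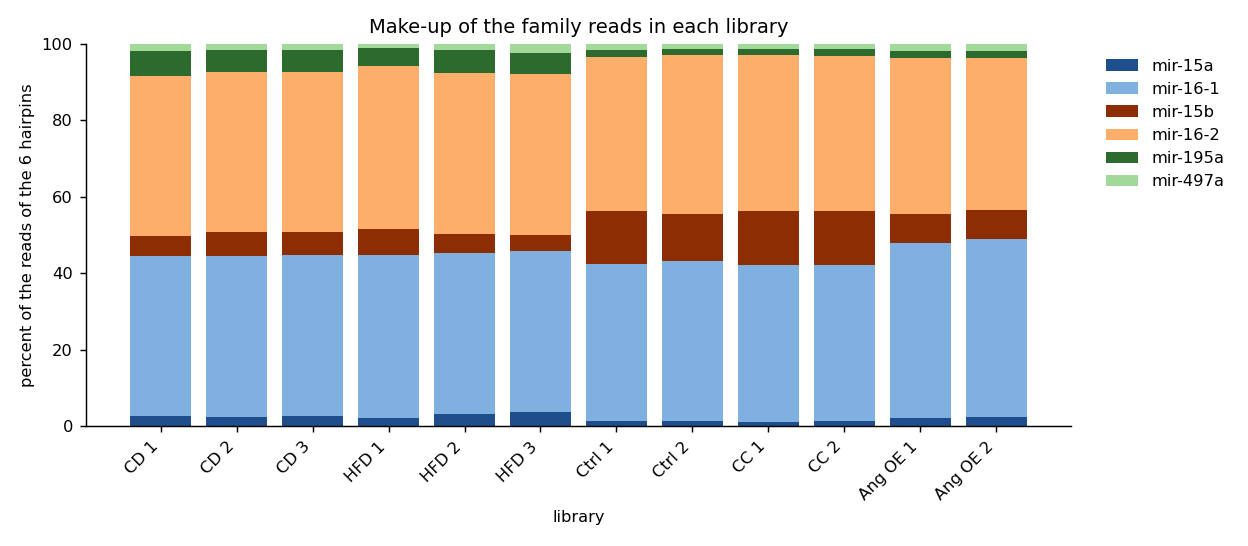
Share of the reads of the 6 hairpins (vertical axis, percent) taken by each member in each of the 12 libraries (horizontal axis), as stacked bars that add up to 100%. The mir-15b band covers 12.3% to 14.3% in Ctrl and CC cells and 4.23% to 7.70% in all other libraries.

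The diets were compared to ask whether the HFD changed the family in sperm. mir-16-1 stood at 1356, 2100 and 1687 CPM in the CD libraries and at 2311, 1665 and 1833 in the HFD libraries, and mir-16-2 followed it within 7 CPM in each library. The diets overlapped. mir-15b stood at 171, 318 and 238 in CD and at 361, 193 and 184 in HFD sperm, with the lowest library in CD and the highest in HFD. mir-15a stood at 91.6, 125 and 111 in CD and at 124, 126 and 157 in HFD sperm. Although its mean was higher on the HFD, the highest CD library lay above the lowest HFD library. mir-195a stood at 217, 292 and 234 in CD and at 256, 234 and 247 in HFD sperm. mir-497a, its partner on chromosome 11, stood at 56.6, 75.0 and 63.4 in CD and at 58.4, 66.5 and 98.6 in HFD sperm. Each member overlapped between the diets.

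In edgeR's quasi-likelihood test, none of the 6 members was called at an adjusted p under 0.05, and percent called over all 451 hairpins tested was 0 (31 hairpins had an unadjusted p under 0.05, no member among them, and DESeq2 called 8 hairpins, again with no member). The log2 fold changes of HFD against CD were 0.21 for mir-15a, -0.07 for mir-15b, 0.08 for mir-16-1, 0.08 for mir-16-2, -0.11 for mir-195a and 0.09 for mir-497a, each with an adjusted p of 0.989. Their median was 0.08, beside -0.01 over all hairpins. The 95% intervals were wide. That of mir-15b ran from -0.72 to 0.57 and that of mir-15a from -0.21 to 0.62, so changes of such a size in either member could not be told from none with 3 libraries per diet. The summed white blood cell markers did not overlap between the diets, at 592 to 685 CPM in CD and 787 to 1435 in HFD sperm, most of it mir-142a, at 484 to 575 and at 688 to 1179. mir-150 reached 202 in HFD replicate 1. The other 3 markers found overlapped between the diets. Red blood cell, epithelial and muscle markers varied among the HFD libraries. In HFD replicates 1 to 3 the epithelial sum was 8946, 11272 and 14327 CPM and the muscle sum 30653, 52041 and 56169. In CD replicates 1 to 3 the epithelial sum was 9281, 10573 and 9325 and the muscle sum 50989, 42735 and 33628. The red blood cell sum was 50595, 36163 and 25239 CPM in HFD replicates 1 to 3, where mir-15b was at 361, 193 and 184. It was 30512, 26237 and 34490 in CD replicates 1 to 3, where mir-15b was at 171, 318 and 238. The testis germ cell sum was 4101, 3106 and 3454 in HFD replicates 1 to 3 and 2934, 8359 and 4801 in CD replicates 1 to 3. The part of these cells in the members' levels was not tested.

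The treatment with CC addressed what blocking AMPK does to small RNAs in a testis cell line. mir-16-1 stood at 6206 and 7700 CPM in Ctrl and at 7184 and 6945 in CC cells. Both CC values lay between the Ctrl values. mir-15b stood at 2079 and 2247 in Ctrl and at 2515 and 2374 in CC cells, without overlap. The share of all hairpins without overlap was not counted, and 2 libraries per group often separate without any change. mir-15a stood at 203 and 235 in Ctrl and at 204 and 218 in CC cells. mir-195a stood at 279 and 306 in Ctrl and at 273 and 291 in CC cells. mir-497a hardly varied, with 235 and 241 in Ctrl and 234 and 239 in CC cells.

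None of the 6 members was called between CC and Ctrl by edgeR, where 4.13% of the 533 hairpins tested were called (2.25% higher and 1.88% lower), and DESeq2 called no member either. No member had an unadjusted p under 0.05, which 94 of the hairpins had. The log2 fold change was 0.18 for mir-15b (SE 0.10, 95% interval -0.04 to 0.40, edgeR adjusted p = 0.395). The other 5 ran from -0.05 for mir-15a to 0.04 for mir-16-2, and the intervals of all 6 lay between -0.30 and 0.40. The median of the members was 0.01, beside -0.03 over all hairpins.

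Compared with untreated cells, Ang OE cells, which also carried the plasmid, showed opposite changes in both mir-15 hairpins. mir-15b, at 2079 and 2247 CPM in Ctrl cells, stood at 959 and 819 in Ang OE cells. mir-15a, at 203 and 235 in Ctrl cells, stood at 287 and 255. Neither hairpin overlapped between the groups. mir-15b fell by 1.01 on the log2 scale, a 2.02-fold decrease (SE 0.11, 95% interval -1.24 to -0.79, edgeR adjusted p = 1.36e-06). mir-15a rose by 0.58, a 1.50-fold increase (SE 0.12, 95% interval 0.33 to 0.83, edgeR adjusted p = 9.43e-04). Both calls held in each of the 17 alternatives run, with log2 fold changes of -1.28 to -0.92 for mir-15b and 0.31 to 0.72 for mir-15a.

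The other members were not called. mir-16-1 stood at 5704 and 4953 and mir-16-2 at 5108 and 4220 CPM in Ang OE cells, each below both of its Ctrl values. On the edgeR scale their log2 fold changes were -0.11 (SE 0.12, edgeR adjusted p = 0.459) and -0.28 (SE 0.12, edgeR adjusted p = 0.0702). When the hairpins were summed, the value was -0.20 (95% interval -0.45 to 0.05, edgeR adjusted p = 0.186). mir-195a, at 233 and 197, had a log2 fold change of -0.17 (edgeR adjusted p = 0.256), and mir-497a, at 230 and 193, one of 0.10 (edgeR adjusted p = 0.504).

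Thus 1 of the 6 members was called higher and 1 lower in Ang OE cells, where percent called over all 533 hairpins was 38.3, with 24.2 higher and 14.1 lower. The members' median log2 fold change was -0.14, beside 0.06 over all hairpins. The calls of 3 other members changed with the scaling. mir-143 made up 93152 and 127840 CPM in Ang OE cells against 48544 to 54354 in Ctrl cells. When libraries were scaled to all miRNA reads, the median of all hairpins went from 0.06 to -0.21, the calls went from 129 higher and 75 lower (63.2% higher) to 81 higher and 139 lower (36.8% higher), and mir-16-1 (-0.38), mir-16-2 (-0.55) and mir-195a (-0.44) were called as well. Relative to that median, mir-15a was higher and mir-15b lower under both scalings. mir-497a went from 0.10 to -0.17 with all miRNA reads, but lay 0.04 above the median of all hairpins under both, since such a scaling moves every hairpin nearly alike. mir-16-2 was also called without Ctrl replicate 1 (-0.45) and without Ang OE replicate 1 (-0.47), by DESeq2 (-0.35) and with a filter of at least 100 reads (-0.39), under which mir-195a was called too (-0.28). A fit without 1 of 2 libraries takes its spread from the other groups and assumes that the lone library varies like them. In all, 8 of the 16 alternatives for mir-16-2 made the call, the fit with the replicate number as a block (-0.28, edgeR adjusted p = 0.0390) among them. The 6 muscle markers summed to 94556 to 129039 in Ang OE and 49715 to 55567 in Ctrl cells, nearly all of it mir-143, and the 6 germ cell markers to 1932 to 2045 against 1017 to 1050, nearly all of it mir-34c. The 4 red blood cell markers went the other way, at 1762 to 1784 in Ang OE and 1879 to 1956 in CC against 2737 to 2857 in Ctrl cells, nearly all of it mir-486a and mir-486b. Their part in the members' levels was not tested.

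**Figure D3:**
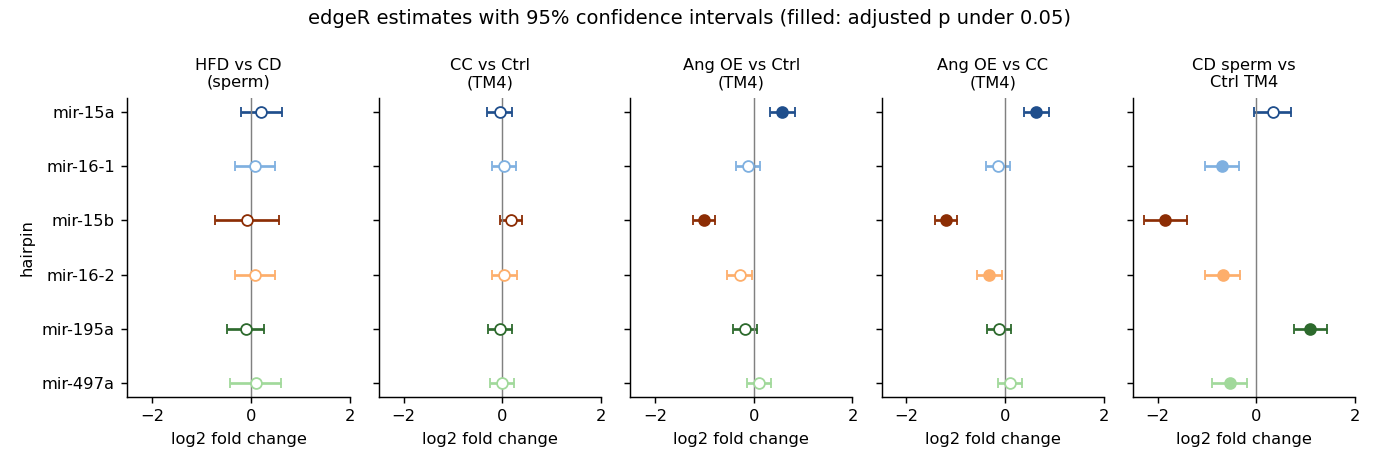
edgeR log2 fold changes (horizontal axis) of the 6 hairpins (vertical axis) in 5 comparisons, with 95% confidence intervals as bars and filled points where the adjusted p was under 0.05. In both Ang OE panels mir-15a lies to the right of 0 (0.58 and 0.63) and mir-15b to the left (-1.01 and -1.19), while all intervals cross 0 in the HFD and CC panels.

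Ang OE and CC cells were compared directly, since a call against Ctrl in one treatment and not in the other is no test of their difference. mir-15b was lower in Ang OE than in CC cells by a log2 fold change of -1.19 (SE 0.11, edgeR adjusted p = 1.91e-07) and mir-15a was higher by 0.63 (SE 0.12, edgeR adjusted p = 4.20e-04). Both were called in each of the 17 alternatives. mir-16-2 was called lower, at -0.32 (SE 0.12, edgeR adjusted p = 0.0403), but was not called without CC replicate 1 (-0.31, adjusted p = 0.161), without CC replicate 2 (-0.36, adjusted p = 0.112), without Ang OE replicate 2 (-0.24, adjusted p = 0.208) or with ComBat-seq (-0.35, adjusted p = 0.0582), all by edgeR. It was called in the other 12 of its 16 alternatives, over which the adjusted p ran from 6.84e-04 to 0.208. The summed mir-16 hairpins had a log2 fold change of -0.23 (edgeR adjusted p = 0.124). Hence 3 of 6 members were called, 1 higher and 2 lower, where percent called over the 533 hairpins was 41.5, with 26.3 higher and 15.2 lower. The median of the members was -0.13, beside 0.07 over all hairpins. Scaled to all miRNA reads, the median of all hairpins was -0.20, the calls went from 140 higher and 81 lower (63.3% higher) to 83 higher and 143 lower (36.7% higher), and mir-16-1 (-0.41) and mir-195a (-0.39) were called lower as well. Both were also called with miRNA reads without mir-143 (-0.33 and -0.32), where 46.5% of the calls were higher, and with clean reads without rRNA that share was 52.7%.

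Ratios between hairpins of the same library need no scaling between libraries, and are given as descriptions without a test. The reads of mir-15b numbered 10.2 and 9.57 times those of mir-15a in the Ctrl libraries and 12.3 and 10.9 times in the CC libraries. In the Ang OE libraries this ratio was 3.34 and 3.21, below each Ctrl and CC library. In sperm it ran from 1.86 to 2.53 on the CD and from 1.17 to 2.92 on the HFD, so the HFD libraries spanned the whole CD range.

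The ratio of each mir-15 hairpin to the mir-16 hairpin of its pair moved in opposite directions. The log2 ratio of mir-15a to mir-16-1 was -4.98 ± 0.07 (SD, n = 2) in Ctrl cells, -5.07 ± 0.10 in CC cells (n = 2) and -4.30 ± 0.02 in Ang OE cells (n = 2). That of mir-15b to mir-16-2 was -1.65 ± 0.14 in Ctrl cells (n = 2), -1.52 ± 0.02 in CC cells (n = 2) and -2.39 ± 0.03 in Ang OE cells (n = 2). Both Ang OE values lay between those of untreated TM4 cells and sperm, where the log2 ratios were -3.96 ± 0.09 and -2.84 ± 0.13 on the CD (n = 3). On the HFD they were -3.83 ± 0.35 and -3.03 ± 0.32 (n = 3), and overlapped with the CD. The denominators hold reads shared by both mir-16 hairpins, so that these ratios follow mir-15 over pooled mir-16 reads rather than the output of 1 transcript.

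miR-195a-5p and miR-497a-5p differ at 9 of 21 bases, so reads of one are not counted for the other. Their log2 ratio was 1.93 ± 0.04 in CD sperm (SD, n = 3), 1.76 ± 0.41 in HFD sperm (n = 3), 0.30 ± 0.07 in Ctrl (n = 2), 0.25 ± 0.04 in CC (n = 2) and 0.02 ± 0.01 in Ang OE cells (n = 2). mir-195a thus had 2.51 to 4.39 times the reads of mir-497a in sperm and 1.01 to 1.27 times in TM4 cells, without overlap. Among the sperm libraries, HFD replicate 1 had the highest ratio (4.39) and HFD replicate 3 the lowest (2.51).

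The mir-16 hairpins were nearly equal in most libraries. mir-16-1 exceeded mir-16-2 by 2.29 to 6.86 CPM in sperm, by 110 and 103 in Ctrl cells and by 41.9 and 70.9 in CC cells. In the Ang OE libraries the excess was 597 and 733 CPM, or 5.52% and 7.99% of their summed reads, against at most 110 CPM in any other library. Since shared reads were split, the excess stands for reads that fitted mir-16-1 and not mir-16-2, less those of the opposite kind. Which arm or end of the hairpin they came from cannot be read from the files.

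**Figure D4:**
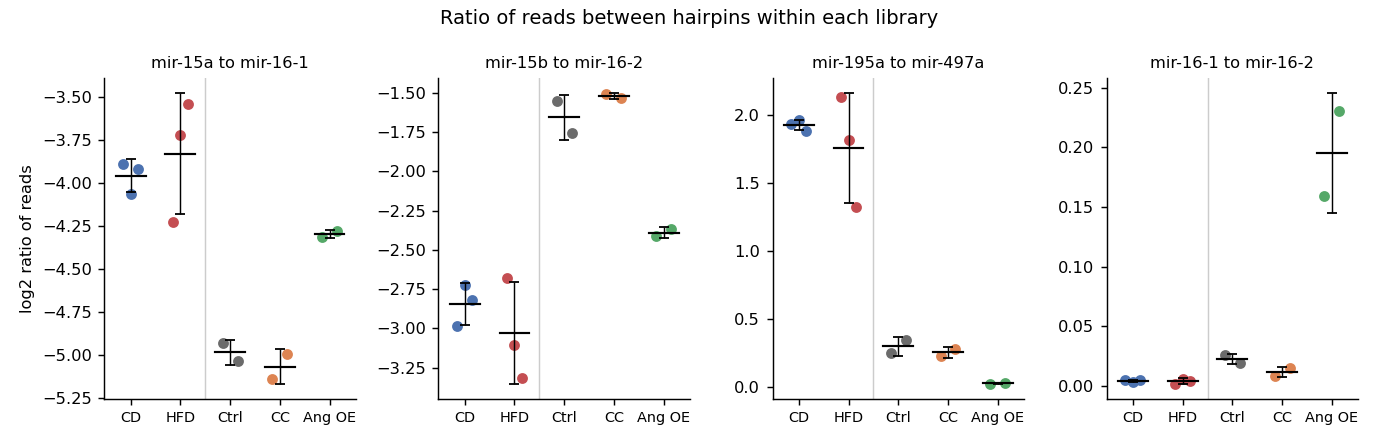
log2 ratio of reads between 2 hairpins of the same library (vertical axis, a scale of its own in each panel) by group, with 1 point per library, a line at the group mean and bars of 1 SD. Ang OE stands apart from Ctrl and CC in all 4 panels, and the ratio of mir-195a to mir-497a separates sperm (1.33 to 2.13) from TM4 cells (0.02 to 0.34).

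CD sperm and Ctrl TM4 cells were set side by side as the untreated sources. Source and any difference in preparation cannot be told apart. mir-15b was lower in sperm by a log2 fold change of -1.85 (SE 0.19, edgeR adjusted p = 2.17e-05). mir-16-1 was lower by -0.70 (SE 0.15, edgeR adjusted p = 0.00290), mir-16-2 by -0.68 (SE 0.15, edgeR adjusted p = 0.00341) and mir-497a by -0.55 (SE 0.15, edgeR adjusted p = 0.0103). mir-195a was higher by 1.09 (SE 0.15, edgeR adjusted p = 1.42e-04), and mir-15a, at 0.33, was not called (edgeR adjusted p = 0.0949). So 5 of 6 members were called, 1 higher and 4 lower, where percent called over the 590 hairpins tested was 77.1, with 40.7 higher and 36.4 lower, a share near that of the members.

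These values rest on the scaling to an unusual degree. With libraries scaled to all miRNA reads the median of all hairpins went from -0.13 to -1.47, and with clean reads without rRNA to -1.71. The split of the calls went from 240 higher and 215 lower (52.7% higher) to 194 and 342 (36.2% higher) and to 187 and 354 (34.6% higher). mir-195a changed sign under them, to -0.24 and, called lower at an edgeR adjusted p of 0.0301, to -0.48, and mir-15a was called lower, at -1.0 and -1.25. By DESeq2 (0.48, adjusted p = 0.00502) and with a minimum of 100 reads (0.54, edgeR adjusted p = 0.0219) mir-15a was instead called higher in sperm. Its distance from the median of all hairpins differed little between the scalings, at 0.46 above it with TMM, 0.47 with all miRNA reads, 0.46 with clean reads and 0.46 by DESeq2. mir-195a was no longer called without Ctrl replicate 1 (0.13), without Ctrl replicate 2 (0.30) or with no filter on low counts (0.44), so that 10 of its 14 alternatives made a call, 9 of them higher in sperm. mir-15a was below 0 without Ctrl replicate 1 or without Ctrl replicate 2 (-0.67, called at an edgeR adjusted p of 0.0267, and -0.42, not called). mir-15b, mir-16-1 and mir-16-2 were called lower in sperm under every alternative run, but the size of the difference varied. It reached -2.80, -1.74 and -1.73 without Ctrl replicate 1, -2.65, -1.39 and -1.37 without Ctrl replicate 2 and -3.41, -2.27 and -2.25 with clean reads without rRNA. mir-497a was too, except with a minimum of 100 reads (-0.33, edgeR adjusted p = 0.0871, with 2.76e-05 to 0.0871 over its 14 alternatives), and reached -1.46 without Ctrl replicate 1, -1.38 without Ctrl replicate 2 and -2.11 with clean reads. Relative to the median of all hairpins, mir-195a stood at 1.22 to 1.23 and mir-15b at -1.69 to -1.72 in sperm under these scalings, which move all hairpins nearly alike. The summed red blood cell markers, at 26237 to 34490 in CD sperm against 2737 to 2857 in Ctrl cells, and the epithelial markers, at 9281 to 10573 against 1.28 to 1.93, differed as well, and their part in these values was not tested.

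Other hairpins were followed as relatives, and 6 of the 9 listed had at least 1 read. The mature sequence of mir-497b, among these, does not hold the family seed. The most abundant were the partners mir-322 and mir-503 of the X-linked cluster, shown to place them against the seed above.
miR-322-5p: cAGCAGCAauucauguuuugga
miR-503-5p: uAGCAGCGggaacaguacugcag
miR-503-5p departs from the family seed at its last base. mir-322 stood at 32.3, 42.6 and 28.9 CPM in CD sperm, at 27.9, 31.3 and 34.2 in HFD sperm, at 599 and 725 in Ctrl cells, at 590 and 578 in CC cells and at 749 and 653 in Ang OE cells. Its sperm libraries lay far below every TM4 library, with a log2 fold change of -2.93 between CD sperm and Ctrl cells (SE 0.17, edgeR adjusted p = 7.76e-07), which reached -3.96 without Ctrl replicate 1, -3.65 without Ctrl replicate 2 and -4.50 with clean reads without rRNA. Between Ang OE and Ctrl cells it was called higher, at 0.35 (SE 0.12, edgeR adjusted p = 0.0236), but its libraries overlapped, and 10 of 17 alternatives lost the call, leaving out Ctrl replicate 1, Ang OE replicate 1 or either CC library among them (0.20, 0.21, 0.30 and 0.35). With all miRNA reads the value was 0.08. mir-322 was not called between CC and Ctrl (-0.18, edgeR adjusted p = 0.476) or between the diets (-0.25, edgeR adjusted p = 0.989). Against CC cells it was called higher in Ang OE cells, at 0.53 (SE 0.12, edgeR adjusted p = 0.00149), without overlap and in 16 of 17 alternatives, the exception being all miRNA reads (0.26, edgeR adjusted p = 0.0802).

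mir-503 stood at 1.72, 2.80 and 1.28 CPM in CD sperm and at 2.44, 1.53 and 1.82 in HFD sperm, or 17 to 34 reads per library. In TM4 cells it stood at 48.6 and 48.6 in Ctrl, 36.8 and 36.3 in CC and 36.1 and 35.7 in Ang OE cells. CC and Ang OE libraries thus all lay below Ctrl. The log2 fold change was -0.40 for CC (SE 0.13, edgeR adjusted p = 0.0903) and -0.16 for Ang OE (SE 0.13, edgeR adjusted p = 0.332). For CC it was called lower in 2 of 17 alternatives, DESeq2 among them (adjusted p = 0.0251), and its adjusted p ran to 0.320. For Ang OE it was called lower in 2 of 17 alternatives, with all miRNA reads (-0.44, edgeR adjusted p = 0.0106) and with miRNA reads without mir-143 (-0.34, edgeR adjusted p = 0.0418), and its adjusted p ran to 0.631. Between CD sperm and Ctrl cells it was -3.34 (SE 0.27, edgeR adjusted p = 4.89e-06), which reached -4.24 without Ctrl replicate 1, -4.20 without Ctrl replicate 2 and -4.90 with clean reads. The seed of mir-1907, for which no sequence was used here, was not checked. mir-1907 had 24 and 14 reads in Ctrl cells, 21 and 11 in CC cells and 0 in both Ang OE libraries. Against a floor of 3 reads over both Ang OE libraries, it was at least 13.1-fold lower there than in Ctrl cells, and the 0 reads allow up to 0.0454 CPM, counting error alone considered. That bound was 8.63-fold without Ctrl replicate 1, 18.8-fold without Ctrl replicate 2, 6.69-fold without Ang OE replicate 1 and 6.41-fold without Ang OE replicate 2. mir-497b had 14 reads in Ctrl replicate 2 and at most 7 in any other library, mir-195b at most 7.5 and mir-6353 a single read, so they carry no comparison.

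Outside the family, the 5 hairpins whose level followed the summed family level most closely over the 12 libraries were let-7d, mir-361, mir-484, mir-652 and mir-425, among 172 with a mean of at least 100 reads in both sources. Pearson's r, on log2 of CPM plus 1 with sperm and TM4 cells each centred on their own mean, was 0.928 for let-7d, a member of the large let-7 family, 0.926 for mir-361, 0.912 for mir-484, 0.905 for mir-652 and 0.899 for mir-425. The points share the libraries' miRNA totals as denominators, so a hairpin that takes a larger share of a library lowers all others together. These 5 were picked by that correlation over the same libraries, so a shared order of group means follows in part from the choice. mir-484 showed the same order of group means as the family in TM4 cells, with means of 980 CPM in CC, 770 in Ctrl and 470 in Ang OE cells, and in sperm, with 42.2 in HFD and 35.2 in CD. let-7d did as well, with 1730, 1679 and 1322 in TM4 cells and 839 and 781 in sperm. mir-652 did within each source, but its mean in HFD sperm (66.6) lay above that in Ctrl cells (58.4), unlike the family. mir-361 was higher in Ctrl (279) than in CC cells (263), also unlike the family. mir-425 was higher in sperm (473 in CD and 518 in HFD) than in TM4 cells (388 in Ctrl, 384 in CC, 234 in Ang OE), unlike the family.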

How the data were processed

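Small RNA was sequenced with the TruSeq Small RNA kit. The authors used FastQC 0.12.0, Trimmomatic 0.40 and SPORTS1.1, with 1 mismatch allowed and mm10 per the labels. The authors deposited expected counts per library, that is estimated counts in which a read that fits several hairpins is divided among them, before any normalization. Reads with and without a genome match were added, and no member had reads without one.

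Counts were rounded and tested with edgeR 4.0.16 (R 4.3.3) by the quasi-likelihood test with TMM factors and Benjamini-Hochberg adjustment over every hairpin that reached 10 reads in 3 sperm libraries or 2 TM4 libraries (2 of the 5 for CD against Ctrl). The diets were fitted alone and the 3 TM4 groups together. The methods of the study named DESeq2 and, for cells, ComBat-seq with batches not given in the sources used here. DESeq2 1.42.0, ComBat-seq (sva 3.50.0) with the replicate number as batch, other library sizes and filters, genome-matched reads, summed mir-16 hairpins, the replicate block and leaving out each library were alternatives. Scaling without mir-143 was added after seeing the data. In simulated counts with 200 hairpins changed by 2 on the log2 scale, 91.5% to 95.5% were recovered with 2 to 9 false calls over the 5 comparisons, run on 451 to 590 hairpins. The members changed by less than that between the diets and among the TM4 groups, and recovery of smaller changes was not examined.

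Named hairpins were the members, the listed relatives with 10 reads in 2 libraries or more, and the 5 others most correlated with the family. Relatives below that count were named after their values were seen. Members and lists were chosen with earlier results of these data known. TM4 replicates are not stated to be separate cultures, so their p-values measure the spread between libraries, which may be technical. RefSeq sequences of all 6 members were matched by miRNA name, and host genes were found by gene name in the GENCODE annotation of GRCm39. Figures were drawn with matplotlib 3.10.9.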

Additional observations from a re-analysis of the deposited data

How the results depend on the processing

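The calls of mir-15a and mir-15b in both Ang OE comparisons, and of mir-15b, mir-16-1 and mir-16-2 between CD sperm and Ctrl cells, kept their direction under all alternatives run. No member was called between the diets or between CC and Ctrl under any alternative. Depth did not limit the members, whereas mir-503 in sperm and mir-1907, mir-497b, mir-195b and mir-6353 rested on few reads. Fits without 1 of 2 TM4 libraries assume that the lone library varies like the other groups. Other library sizes move all hairpins nearly alike. With all miRNA reads, clean reads and miRNA reads without mir-143, the median of all hairpins was -0.21, -0.081 and -0.12 for Ang OE against Ctrl, where mir-497a lay 0.04 above it each time as with TMM. For CD sperm against Ctrl it was -1.473 with all miRNA reads and -1.705 with clean reads, and mir-15a lay 0.473 and 0.46 above it, beside 0.462 with TMM. For the diets it was 0.104 and 0.187. Where a sign changed in another way, the cause was not tested unless the alternative's construction shows it.

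Between the diets, DESeq2 called 8 hairpins where edgeR called 0. Scaled to all miRNA reads, the log2 fold change was 0.023 for mir-15b and 0.014 for mir-503. Scaled to clean reads without rRNA, it was 0.103 for mir-15b, 0.076 for mir-195a and 0.094 for mir-503. With 1 library left out at a time, it ran from -0.343 to 0.158 for mir-15b, from -0.073 to 0.335 for mir-497a and from -0.227 to 0.165 for mir-503.

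Between CC and Ctrl, the 22 calls became 39 with ComBat-seq and ranged from 0, without either CC library, to 26 with 1 library left out. mir-497a was at 0.025 with DESeq2, 0.001 with clean reads, 0.038 with no filter, 0.005 with ComBat-seq and 0.006 with miRNA reads without mir-143. With 1 library left out, the log2 fold change ran from -0.171 to 0.077 for mir-15a, -0.138 to 0.212 for mir-16-1, -0.130 to 0.226 for mir-16-2, -0.133 to 0.040 for mir-195a and -0.043 to 0.036 for mir-497a.

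Between Ang OE and Ctrl, mir-497a was at -0.170 with all miRNA reads, -0.037 with clean reads, -0.008 with a minimum of 100 reads and -0.079 without mir-143, which also called mir-16-1, mir-16-2 and mir-195a. With 1 library left out, mir-16-1 ran from -0.280 to 0.084 and mir-497a from -0.072 to 0.165. Between Ang OE and CC, mir-497a was at -0.161, -0.038, -0.002 and -0.086 under the same alternatives and from -0.073 to 0.177 with 1 library left out, and mir-503 was at -0.027 with all miRNA reads.

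Between CD sperm and Ctrl, mir-15a was at -1.0 with all miRNA reads, -1.245 with clean reads, -0.322 with no filter, -0.070 in the model of all 12 libraries and from -0.669 to 0.269 with 1 library left out. mir-195a was at -0.239 with all miRNA reads and -0.481 with clean reads.

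In sperm, the replicate numbers gave no sign of pairing the samples. For TM4 cells the check cannot decide. With 2 libraries per group the deviations mirror each other, so each pair of groups gives 1 value. Deviations of same-numbered libraries correlated at -0.345, -0.239 and 0.0698 in sperm and at -0.0168, -0.0997 and 0.156 in TM4 cells, and 1 of the 6 sperm libraries correlated best with their own number. With the number as a replicate block the calls went from 22 to 35 for CC, from 204 to 222 for Ang OE against Ctrl, from 221 to 243 for Ang OE against CC and from 455 to 407 for sperm against Ctrl cells, and stayed at 0 for the diets. mir-16-2 was called under the block for Ang OE against Ctrl (-0.28, edgeR adjusted p = 0.0390, with 0.00121 to 0.731 over its alternatives).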
